A study of Homo sapiens with 12 samples.

Results

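The let-7 guide strands are the 5p arms of the let-7 hairpins, and 7 of them were followed here: hsa-let-7a-5p, hsa-let-7b-5p, hsa-let-7d-5p, hsa-let-7f-5p, hsa-let-7g-5p, hsa-let-7i-5p and hsa-miR-98-5p, named below without the prefix for human. They were chosen by name, without let-7c-5p and let-7e-5p, and all 7 were among the 1854 miRNA names listed for HCT116 and the 1611 listed for HEK293T. The libraries were made by AQ-seq, a protocol for small RNA that reduces ligation bias, from 2 human lines, HCT116 (colorectal carcinoma) and HEK293T (embryonic kidney). Each line was rescued with 1 of 3 forms of DICER: a form without the double-stranded RNA-binding domain (dsRBD deletion), a form named AA, whose change the labels do not spell out, or WT. The 6 groups held 2 libraries each. The labels do not say what endogenous DICER the cells had, how many clones were used, or how much of each form the cells made. The effect of an altered form and that of its amount therefore cannot be told apart.

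DICER cuts the loop off a hairpin precursor and releases a duplex, of which the guide strand is loaded into an Argonaute protein and the passenger strand is mostly lost. The dsRBD at the end of DICER helps to hold the precursor. Let-7 miRNAs are known for repressing growth genes such as HMGA2, MYC and the RAS genes, and their precursors can be held back from DICER by the protein LIN28. Most let-7 precursors carry a short overhang that is extended by terminal uridylation before DICER cuts them well.

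The mature sequences are shown first, since the members are separated by only a few bases and reads of near-identical names may be shared. The sequences are from RefSeq (GRCh38.p14), 5′ to 3′, and the capitals mark the seed, bases 2 to 8, which pairs with target mRNAs.
let-7a-5p: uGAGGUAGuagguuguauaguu
let-7b-5p: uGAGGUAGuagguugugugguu
let-7d-5p: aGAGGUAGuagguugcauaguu
let-7f-5p: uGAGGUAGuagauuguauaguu
let-7g-5p: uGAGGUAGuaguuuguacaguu
let-7i-5p: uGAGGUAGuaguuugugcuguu
miR-98-5p: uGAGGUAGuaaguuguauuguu

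All 7 were 22 bases long and had the same seed, which 11 of the 2370 mature names in the RefSeq table hold. Counted from 1 at the 5′ end and against let-7a-5p, let-7f-5p differs by G12A alone. Let-7b-5p differs by A17G and A19G, let-7g-5p by G12U and U18C, and miR-98-5p by G11A and A19U. Let-7i-5p is the most distant, with G12U, A17G, U18C and A19U. Let-7d-5p carries U1A and U16C and is the only member that begins with A. Let-7a-5p comes from 3 loci and let-7f-5p from 2, and the other 5 members from 1 locus each.

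In GRCh38.p14, MIRLET7A1 (chr9:94175957-94176036), MIRLET7F1 (chr9:94176347-94176433) and MIRLET7D (chr9:94178834-94178920) lie on the plus strand in an intron of the lincRNA AL158152.2. MIRLET7F1 and MIRLET7D are 2400 bases apart. MIRLET7A3 (chr22:46112749-46112822) and MIRLET7B (chr22:46113686-46113768) overlap an exon of MIRLET7BHG on the plus strand. MIR98 (chrX:53556223-53556341) and MIRLET7F2 (chrX:53557192-53557274) lie in introns of HUWE1 on the minus strand. MIRLET7A2 (chr11:122146522-122146593, minus strand) lies in an intron of MIR100HG and MIRLET7G (chr3:52268278-52268361, minus strand) in an intron of WDR82. MIRLET7I (chr12:62603686-62603769, plus strand) lies in an intron of the lincRNA AC048341.1.

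The hairpins of the members with the clearest contrasts are given with the 5p arm in capitals. MIRLET7D and MIRLET7F1 share a cluster, while let-7f-5p can also come from MIRLET7F2, whose hairpin is not printed. With the deletion in HCT116 let-7d-5p and let-7f-5p were both lower, by unlike amounts (log2 fold changes −2.74 and −0.71). With the deletion in HEK293T let-7f-5p was lower (−1.53) and let-7d-5p was not called (−0.25). Let-7g-5p and let-7i-5p differ by 2 bases. In HCT116 and HEK293T they moved in opposite directions with the deletion relative to the typical miRNA, while both were lower on the spike-in scale.
MIRLET7D: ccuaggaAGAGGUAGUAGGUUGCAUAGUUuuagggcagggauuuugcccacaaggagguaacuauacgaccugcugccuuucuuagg
MIRLET7F1: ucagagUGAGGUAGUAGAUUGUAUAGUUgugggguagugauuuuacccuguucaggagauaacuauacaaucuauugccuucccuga
MIRLET7G: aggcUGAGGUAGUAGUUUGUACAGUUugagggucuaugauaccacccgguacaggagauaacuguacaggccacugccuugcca
MIRLET7I: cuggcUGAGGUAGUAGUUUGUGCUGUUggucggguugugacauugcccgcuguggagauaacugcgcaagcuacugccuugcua

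Between the arms there are 32 bases in MIRLET7D, 34 in MIRLET7F1, 35 in MIRLET7G and 34 in MIRLET7I. The 3 let-7a hairpins have shorter stretches, of 23 to 29 bases, and those of MIRLET7B and MIR98 hold 32 and 36.

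The libraries held 824987 to 4498886 miRNA reads, fewest in the deletion libraries of each line, and 3 reads, up to which a count of 0 cannot be told from a low level, were 0.667 to 3.64 CPM (reads relative to library size). The members had 39651 to 174546 reads together in an HCT116 library and 5932 to 46065 in an HEK293T library. Of the epithelial markers miR-200c-3p stood at 38.9 to 73.2 CPM in HCT116 and at 17.1 to 35.9 CPM in HEK293T. MiR-141-3p, another, stood at 3.64 and 3.70 CPM with the deletion, 57.7 and 53.2 CPM with AA and 62.7 and 59.2 CPM with WT in HCT116, and at 0.944 to 24.4 CPM in HEK293T. MiR-192-5p, miR-194-5p and miR-215-5p were higher in HEK293T than in HCT116, and miR-124-3p, a neuronal marker, reached 384 CPM in HEK293T, so these markers did not separate the lines as their tissue names would have it. The blood marker miR-142-3p stood at 90.9 and 97.6 CPM with the deletion, 419 and 410 CPM with AA and 365 and 339 CPM with WT in HCT116, and at 4.72 to 13.5 CPM in HEK293T. MiR-142-5p reached 123 CPM in HCT116 and 4.08 CPM in HEK293T. The muscle markers miR-1-3p and miR-133a-3p were at 5.07 CPM or less in every library, the blood marker miR-223-3p at 6.06 CPM or less and the liver marker miR-122-5p at 17.0 CPM or less. The part of these markers in the results was not tested.

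Per spike-in read, the let-7 guide strands together were fewer with either altered form of DICER in both lines, and so were all miRNAs together. In HCT116 the summed reads of the 7 members per spike-in read were 3.06 and 2.74 with the deletion, 7.99 and 7.95 with AA, and 10.6 and 14.3 with WT. In HEK293T they were 0.181 and 0.133 with the deletion, 0.303 and 0.182 with AA, and 0.716 and 1.05 with WT. No altered library reached the lowest WT library of its line.

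As means these were 23.3% of WT with the deletion and 63.9% with AA in HCT116, and 17.8% and 27.5% in HEK293T. The reads of all miRNA names per spike-in read were 20.03% of WT with the deletion and 64.8% with AA in HCT116, and 34.5% and 63.1% in HEK293T. The sum of the members was thus close to that of all miRNAs in HCT116 and below it in HEK293T. Against each of the 30 spike-ins taken alone, the summed members were lower with the deletion in all 30 in both lines, by log2 differences of −2.58 to −1.10 in HCT116 and −4.12 to −1.31 in HEK293T. With AA they were lower against 28 of 30 in HCT116 (−2.67 to 0.03) and 30 of 30 in HEK293T (−3.08 to −0.97). No source used here says how much spike-in RNA was added or when, so the ratio measures content per unit of RNA only under equal addition to all libraries. With 2 against 2 libraries no two-sided exact permutation p can fall below 0.333, and these sums are given as a description.

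**Figure D1:**
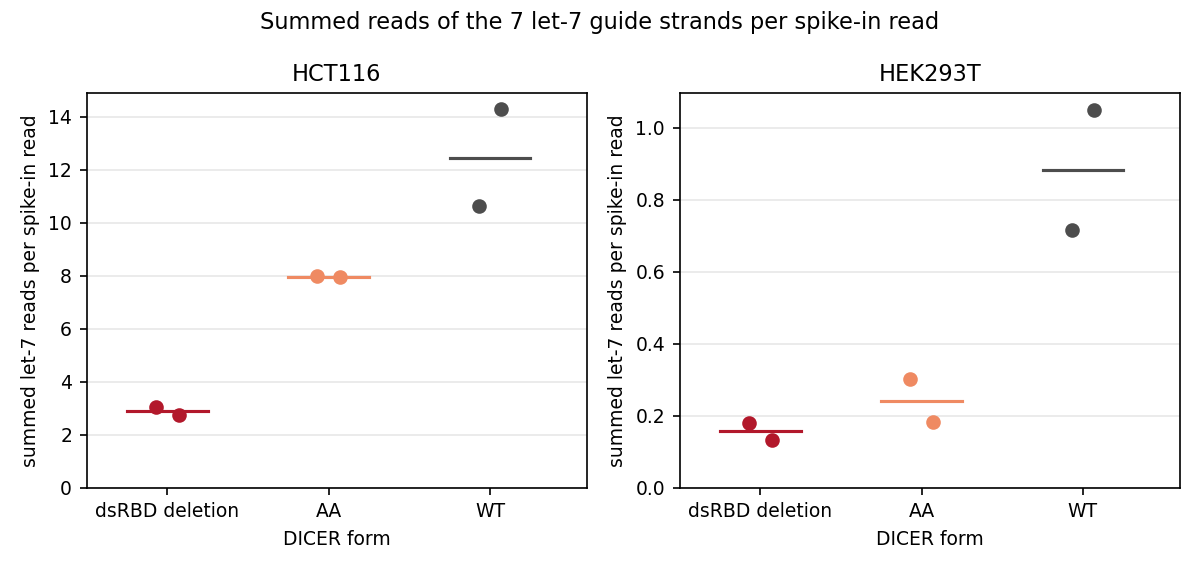
Summed reads of the 7 let-7 guide strands per spike-in read (linear axis from 0, a scale of its own for each line) for the dsRBD deletion, AA and WT. Points are libraries and lines are means of 2 libraries; the WT points, from 10.6 to 14.3 in HCT116 and 0.716 to 1.05 in HEK293T, lie above all altered points of their line.

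Relative to all miRNAs the sum behaved differently in the 2 lines. In HCT116 the members took 4.81% and 4.23% of the miRNA reads with the deletion, 3.81% and 3.87% with AA, and 3.88% and 3.90% with WT. In HEK293T they took 0.620% and 0.488% with the deletion, 0.514% and 0.412% with AA, and 0.867% and 1.30% with WT. The deletion libraries were thus above the WT libraries in HCT116 and below them in HEK293T, and the WT libraries of HEK293T differed between themselves by more than the HCT116 ones.

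With WT DICER all 7 guide strands were lower in HEK293T than in HCT116, from 1.74-fold for let-7a-5p to 110-fold for let-7i-5p. This did not hold for every let-7 guide strand. Of those left out of the 7, let-7c-5p was higher in HEK293T (log2 fold change 1.48) and let-7e-5p lower (−2.58). The CPM given here were scaled within each line and are not on a common scale. The fold changes between lines are from a fit of all 12 libraries. Let-7d-5p stood at 35.8 and 42.1 TMM-scaled CPM in HEK293T and at 3888 and 4187 CPM in HCT116. Let-7i-5p stood at 85.4 and 110 CPM in HEK293T and at 9875 and 11054 CPM in HCT116. Let-7a-5p stood at 6413 and 9903 CPM in HEK293T and at 13448 and 14336 CPM in HCT116.

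The lines did not overlap for any of the 7. The log2 fold change was −6.78 ± 0.24 (SE) for let-7i-5p and −6.74 ± 0.25 for let-7d-5p, against −0.80 ± 0.23 for let-7a-5p and −1.67 ± 0.25 for let-7f-5p. Those of miR-98-5p, let-7b-5p and let-7g-5p were −5.01 ± 0.27, −4.60 ± 0.26 and −3.90 ± 0.23. By edgeR's quasi-likelihood F test with Benjamini-Hochberg (BH) adjustment over 844 names, all 7 were lower in HEK293T, where 41.2% of all names tested were lower. The groups did not overlap for 87.3% of all names. Adjusted p was 9.7e-17 for let-7i-5p, 2.0e-16 for let-7d-5p and 0.00336 for let-7a-5p. By the same test it was 5.0e-06 for let-7c-5p, which was higher, and 1.6e-09 for let-7e-5p. The call of let-7a-5p was lost without HEK293T WT replicate 1 (−0.49) and with upper-quartile scaling (−0.37), and without HEK293T WT replicate 2 its value was −1.24.

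The order of the levels also differed. All members have the same length, but remaining ligation bias and reads shared by near-identical names may affect an order by TMM-scaled CPM. In HCT116 with WT the mean CPM ran from let-7a-5p (13892) over let-7i-5p (10464), let-7f-5p (6706), let-7g-5p (5489), let-7b-5p (4092) and let-7d-5p (4038) to miR-98-5p (1084), and the libraries of neighbours overlapped only between let-7b-5p and let-7d-5p. In HEK293T with WT it ran from let-7a-5p (8158) over let-7f-5p (2140), let-7g-5p (376), let-7b-5p (173), let-7i-5p (97.5) and let-7d-5p (38.9) to miR-98-5p (34.4), and only let-7d-5p and miR-98-5p overlapped. Let-7a-5p was thus first in both lines, while let-7i-5p was the fifth in HEK293T and came directly after let-7a-5p in HCT116.

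**Figure D2:**
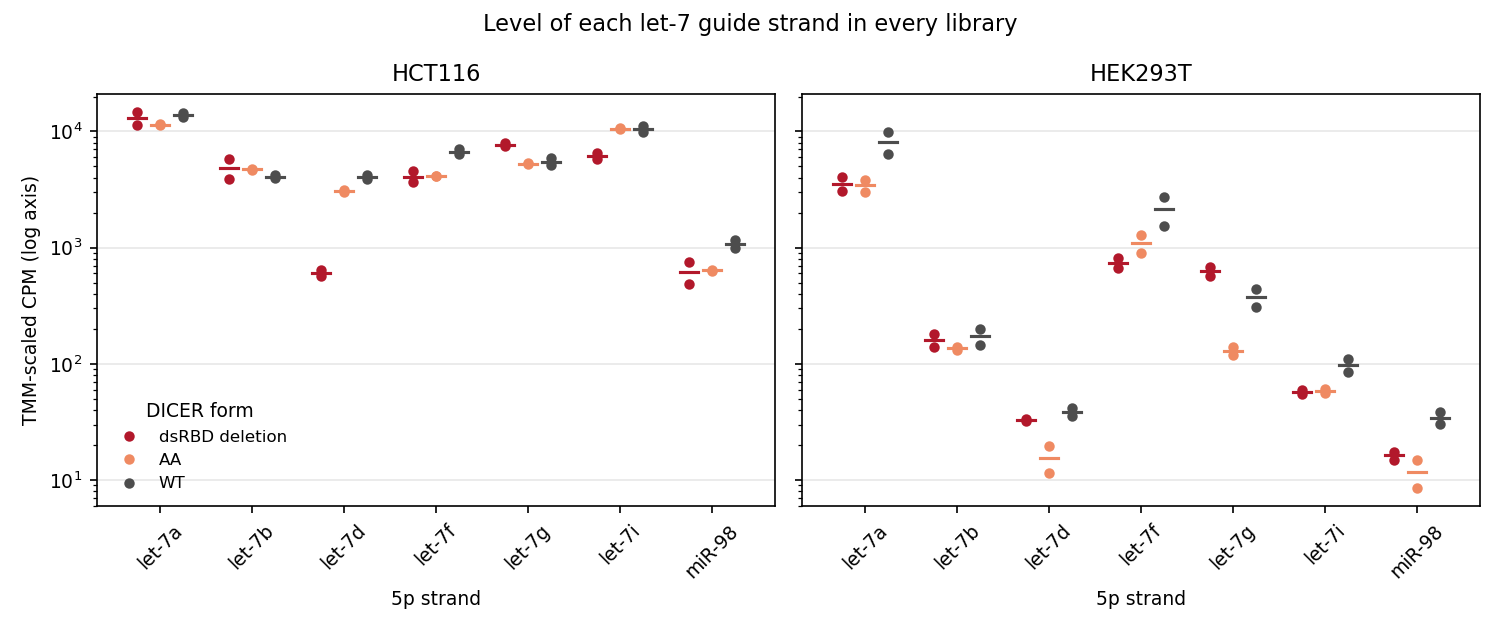
TMM-scaled CPM of each guide strand (log axis) in every library of HCT116 and HEK293T, with the dsRBD deletion, AA and WT. Points are libraries and lines are means of 2 libraries; let-7d in HCT116 shows the widest gap, at 573 and 640 CPM with the deletion, against 3888 and 4187 CPM with WT.

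With the dsRBD deletion in HCT116, let-7d-5p had the largest fall of the 7 relative to the typical miRNA. Let-7d-5p stood at 640 and 573 CPM with the deletion, against 3888 and 4187 CPM with WT. This was a 6.67-fold fall (log2 fold change −2.74 ± 0.13; edgeR quasi-likelihood, BH-adjusted p = 2.0e-08 over 795 names). The groups were far apart, and the fall was called under each of the 14 alternative settings, with log2 fold changes of −4.54 to −2.21.

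Of the other members, 3 fell by less. Let-7i-5p had 6587 and 5747 CPM with the deletion, against 9875 and 11054 CPM with WT (−0.76 ± 0.12). Let-7f-5p, with a locus in the cluster of let-7d-5p and another on the X chromosome, had 4530 and 3657 CPM with the deletion, against 6369 and 7043 CPM with WT (−0.71 ± 0.13). MiR-98-5p had 757 and 487 CPM with the deletion, against 1004 and 1164 CPM with WT (−0.81 ± 0.19). For these 3 no deletion library reached the WT libraries, and edgeR's adjusted p values were 2.4e-04, 7.4e-04 and 0.00375. The call of miR-98-5p was lost with upper-quartile scaling and with library totals, and that of let-7f-5p with library totals.

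Let-7g-5p rose relative to the typical miRNA (0.49 ± 0.12, edgeR adjusted p = 0.00379) and was lower on the spike-in scale (−1.32). It had 7985 and 7457 CPM with the deletion, against 5106 and 5871 CPM with WT. Its groups did not overlap. The call was lost without WT replicate 1 (0.26), without deletion replicate 1 (0.30) and with no filter on low counts (0.26).

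Let-7a-5p and let-7b-5p did not pass. Let-7a-5p had 14637 and 11366 CPM with the deletion, against 13448 and 14336 CPM with WT (−0.10 ± 0.13, edgeR adjusted p = 0.530). Let-7b-5p had 5793 and 3867 CPM with the deletion, against 4238 and 3946 CPM with WT (0.24 ± 0.17, adjusted p = 0.239). In both the groups overlapped, and the deletion replicates differed from each other by more than the WT replicates did. Without deletion replicate 1 let-7a-5p was called lower (−0.43) and let-7b-5p stood at −0.22, and without deletion replicate 2 let-7b-5p was called higher (0.41). Without deletion replicate 1 miR-98-5p stood at −1.29.

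In all, 4 of the 7 members were lower and 1 was higher with the deletion in HCT116, where 34.1% of the 795 names tested were lower and 28.1% higher, 62.1% together. The groups did not overlap for 5 of 7 members and for 82.5% of all names. The median log2 fold change was −0.71 over the members and −0.01 over all names. Scaled to the spike-ins, which moved the median of all names to −1.78, all 7 members and 75.2% of all names were called lower, the members from −4.54 for let-7d-5p to −1.32 for let-7g-5p. Scaled to library totals, with a median of 0.52, let-7a-5p (0.42), let-7b-5p (0.75) and let-7g-5p (1.02) were called higher, and of the 4 falls those of let-7d-5p and let-7i-5p were still called.

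With AA in HCT116, let-7f-5p and miR-98-5p fell. Let-7f-5p had 4136 and 4151 CPM with AA, against 6369 and 7043 CPM with WT (−0.69 ± 0.13, edgeR quasi-likelihood, BH-adjusted p = 0.00921). MiR-98-5p had 631 and 643 CPM with AA, against 1004 and 1164 CPM with WT (−0.77 ± 0.19, adjusted p = 0.0327). For both the groups did not overlap and the AA replicates were close together.

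Let-7d-5p, so low with the deletion, had 3008 and 3110 CPM with AA, against 3888 and 4187 CPM with WT. Its log2 fold change of −0.40 ± 0.12 did not pass (edgeR adjusted p = 0.0656), and it was called without either deletion replicate (−0.40 in both). Let-7i-5p had 10495 and 10681 CPM with AA, against 9875 and 11054 CPM with WT (0.02 ± 0.12), and let-7g-5p 5245 and 5318 CPM, against 5106 and 5871 CPM (−0.06 ± 0.12). Both AA pairs lay inside the range of the WT libraries. Let-7a-5p (−0.28 ± 0.13) and let-7b-5p (0.21 ± 0.17) did not pass either, with adjusted p values of 0.276 and 0.530.

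With AA in HCT116 2 of 7 members were thus lower, against 6.16% of all 795 names (7.42% called in either direction). By edgeR 0 members were higher, against 1.26% of all names, with 0 higher at an unadjusted p under 0.05 and 0 by DESeq2. The groups did not overlap for 5 of 7 members and for 53.8% of all names. The calls of let-7f-5p and miR-98-5p were lost without AA replicate 1 (−0.69 and −0.75) and without AA replicate 2 (−0.71 and −0.79), where the values moved little and 1 AA library was left. With upper-quartile scaling both calls were also lost (−0.56 and −0.63). Scaled to the spike-ins, with a median of −0.63 over all names, 5 members and 34.0% of all names were called lower, and let-7b-5p (−0.39) and let-7i-5p (−0.60) were below 0 and did not pass.

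With the dsRBD deletion in HEK293T, let-7a-5p and let-7f-5p fell most and let-7d-5p did not pass. Let-7f-5p had 816 and 668 CPM with the deletion, against 1551 and 2729 CPM with WT (−1.53 ± 0.28, edgeR quasi-likelihood, BH-adjusted p = 4.7e-04 over 626 names). Let-7a-5p had 4021 and 3101 CPM with the deletion, against 6413 and 9903 CPM with WT (−1.20 ± 0.24, adjusted p = 8.4e-04). For both, WT replicate 2 was the highest library by far, and the groups did not overlap.

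The less abundant let-7i-5p had 60.0 and 55.1 CPM with the deletion, against 85.4 and 110 CPM with WT (−0.76 ± 0.23, edgeR adjusted p = 0.0119). MiR-98-5p had 15.0 and 17.6 CPM with the deletion, against 30.5 and 38.3 CPM with WT (−1.07 ± 0.33, adjusted p = 0.0113). Let-7d-5p had 33.5 and 32.1 CPM with the deletion, against 35.8 and 42.1 CPM with WT (−0.25 ± 0.29, adjusted p = 0.441), and this value was 0.18 with upper-quartile scaling. In these 3 the deletion libraries were all below the WT libraries. The values rest on few reads, with 16 to 144 of let-7d-5p and 12 to 131 of miR-98-5p in an HEK293T library.

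Let-7g-5p rose here too relative to the typical miRNA (0.73 ± 0.21, edgeR adjusted p = 0.00816) and was called lower on the spike-in scale (−0.72). It had 678 and 571 CPM with the deletion, against 309 and 443 CPM with WT. The groups did not overlap. The call was lost without WT replicate 1 (0.46), without deletion replicate 1 (0.61) and with no filter on low counts (0.40). Let-7b-5p had 180 and 140 CPM with the deletion, against 146 and 200 CPM with WT (−0.12 ± 0.22, adjusted p = 0.648), groups that overlapped, and it stood at 0.31 with upper-quartile scaling.

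The deletion in HEK293T thus left 4 of 7 members lower, against 39.6% of 626 names, and 1 of 7 higher, against 35.9%, with 75.6% called in either direction. The groups did not overlap for 6 of 7 members and for 89.0% of all names. The median was −0.76 over the members and −0.07 over all names. Scaled to the spike-ins, with a median of −1.53 over all names, all 7 members and 61.7% of all names were called lower, the members from −2.98 for let-7f-5p to −0.72 for let-7g-5p. Without deletion replicate 1 miR-98-5p was not called (−0.96), and with upper-quartile scaling let-7i-5p (−0.34) and miR-98-5p (−0.65) were not.

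Most guide strands were lower with AA in HEK293T, let-7g-5p among them. Let-7g-5p had 140 and 119 CPM with AA, against 309 and 443 CPM with WT (−1.53 ± 0.22, edgeR quasi-likelihood, BH-adjusted p = 7.6e-04). Let-7a-5p had 3847 and 3023 CPM with AA, against 6413 and 9903 CPM with WT (−1.25 ± 0.24, adjusted p = 0.00451). Let-7f-5p had 1299 and 902 CPM with AA, against 1551 and 2729 CPM with WT (−0.96 ± 0.27, adjusted p = 0.0279). In each the AA libraries lay below both WT libraries.

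The members with few reads moved the same way. MiR-98-5p had 14.8 and 8.60 CPM with AA, against 30.5 and 38.3 CPM with WT (−1.48 ± 0.31, edgeR adjusted p = 0.00733). Let-7d-5p had 19.6 and 11.5 CPM with AA, against 35.8 and 42.1 CPM with WT (−1.26 ± 0.30, adjusted p = 0.0119). Let-7i-5p had 60.4 and 56.6 CPM with AA, against 85.4 and 110 CPM with WT (−0.73 ± 0.23, adjusted p = 0.0412). Let-7b-5p was the exception that did not pass, at 141 and 131 CPM with AA, against 146 and 200 CPM with WT (−0.35 ± 0.22, adjusted p = 0.303).

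With AA in HEK293T 6 of 7 members were lower, against 15.2% of all 626 names (21.4% called in either direction). With DESeq2 size factors and by the DESeq2 Wald test 5 were, without let-7i-5p (−0.64 in both). By edgeR 0 members were higher, against 6.23% of all names, with 0 at an unadjusted p under 0.05 and 0 by DESeq2. The groups did not overlap for 7 of 7 members and for 59.6% of all names. The median was −1.25 over the members and −0.11 over all names. This count depended on 1 library: without AA replicate 2, let-7g-5p was the 1 member still called (−1.37), although the others kept values of −1.15 to −0.63 among those called before. Without WT replicate 2 let-7f-5p (−0.59) and let-7i-5p (−0.64) lost their calls, and without either deletion replicate the same pair did (let-7f-5p −0.85 and −0.86, let-7i-5p −0.62 and −0.63). Without AA replicate 1 let-7i-5p did (−0.84). With upper-quartile scaling 3 members were called, and let-7b-5p turned to 0.10. On the spike-in scale all 7 members, from −2.00 to −0.82, and 30.4% of all names were called lower.

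**Figure D3:**
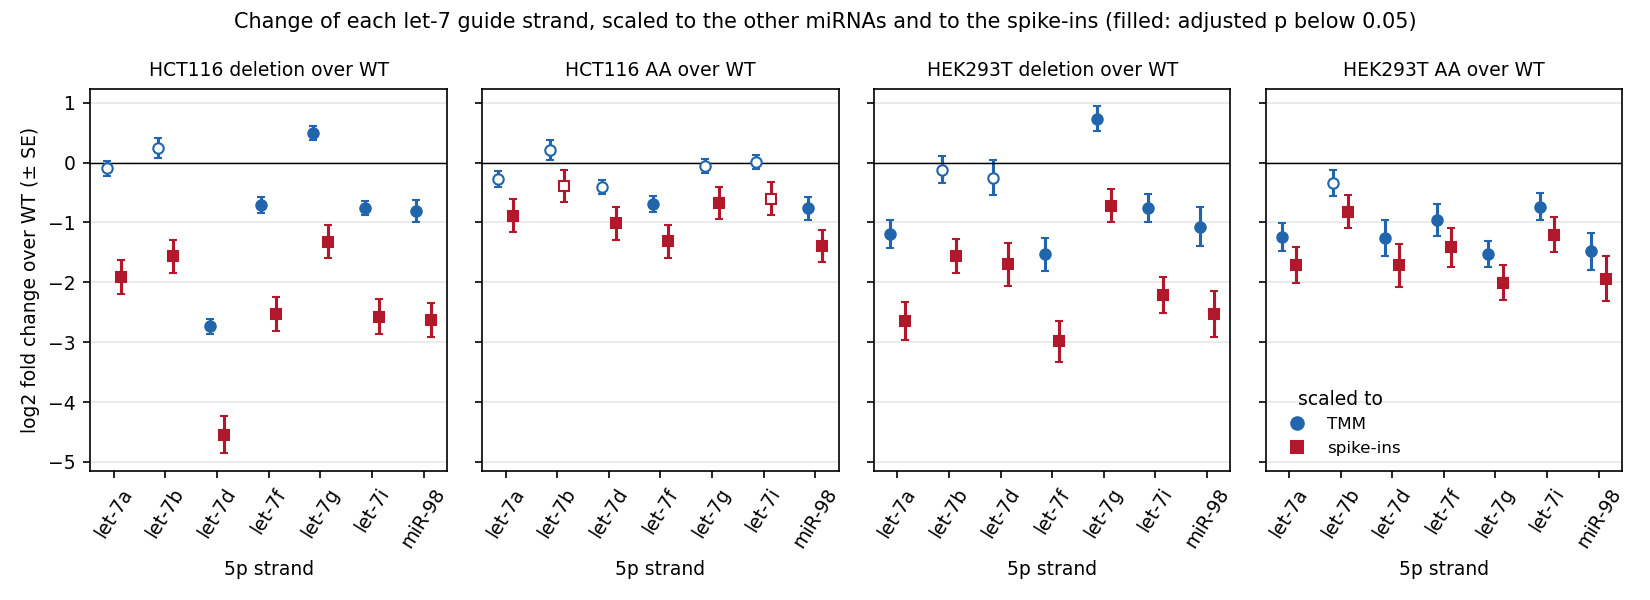
Log2 fold change over WT of each guide strand (± SE) scaled by TMM (circles) and by spike-ins (squares) for the deletion and AA in each line; filled symbols passed an adjusted p of 0.05. In the deletion panels let-7g stands above 0 by TMM (0.49 and 0.73) and below 0 by spike-ins (−1.32 and −0.72), and let-7d in HCT116 is the lowest point on either scale.

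The deletion and AA comparisons of a line share the same WT libraries, so their values are not independent of each other. The lines were then set against each other directly, by a contrast of the effects over all 12 libraries. For let-7d-5p the effect of the deletion differed by 2.79 ± 0.32 on the log2 scale (HEK293T minus HCT116, edgeR quasi-likelihood, BH-adjusted p = 5.1e-07): the fits of each line, scaled separately, gave −0.25 in HEK293T and −2.74 in HCT116. Of the other members 0 passed by edgeR, with 1 at an unadjusted p under 0.05, and 1 passed by the DESeq2 Wald test, where 34.8% of 844 names passed by edgeR. The nearest was let-7a-5p, at −0.82 (adjusted p = 0.0501), which was called under 12 of the 19 alternative settings. Over all 844 names the median of this difference was 0.34 with TMM, 0.03 with DESeq2 size factors and −0.40 with library totals.

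For AA the effect on let-7g-5p differed by −1.38 ± 0.30 between HEK293T and HCT116 (edgeR adjusted p = 0.00679), with −1.53 in HEK293T against −0.06 in HCT116. The other members did not pass, at −0.88 to −0.18 and adjusted p values of 0.145 to 0.877, where 3.91% of all names passed, 2.96% as lower and 0.948% as higher in HEK293T. The let-7d-5p difference for the deletion was called under each of the 19 alternatives (2.08 to 3.07), and so was that of let-7g-5p for AA (−1.71 to −0.98).

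Ratios between members of the same library do not depend on any scaling, and those of members with a locus in the chromosome 9 cluster come first. In HCT116 there were 14.9 ± 1.09 reads of let-7d-5p per 100 reads of let-7f-5p with the deletion (mean ± SD, n = 2), 73.8 ± 1.55 with AA and 60.3 ± 1.13 with WT. In HEK293T there were 4.46 ± 0.494 with the deletion, 1.39 ± 0.170 with AA and 1.93 ± 0.541 with WT. The deletion thus had the lowest ratio of the 3 forms in HCT116 and the highest in HEK293T. Per 100 reads of let-7a-5p, let-7d-5p had 4.71 ± 0.471 reads with the deletion, 26.7 ± 0.262 with AA and 29.1 ± 0.211 with WT in HCT116, and 0.935 ± 0.143 with the deletion, 0.445 ± 0.0927 with AA and 0.491 ± 0.0940 with WT in HEK293T. Part or most of let-7f-5p may come from MIRLET7F2 on the X chromosome, since its mature sequence is the same, and let-7a-5p has 2 loci outside this cluster. With WT in HEK293T let-7f-2-3p, from the X chromosome, had 86 and 80 reads, and let-7f-1-3p, from chromosome 9, had 0 and 3. With WT in HCT116 they had 476 and 380, and 243 and 221. Which locus gave the let-7f-5p reads was not tested, so these need not be ratios within 1 cluster.

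The pair let-7g-5p and let-7i-5p, which differ at 2 bases, shifted the same way with the deletion in both lines. Per 100 reads of let-7i-5p, let-7g-5p had 125.5 ± 6.03 reads with the deletion in HCT116, 49.9 ± 0.131 with AA and 52.4 ± 0.994 with WT. In HEK293T it had 1083 ± 65.97 with the deletion, 221 ± 15.0 with AA and 383 ± 29.6 with WT. The mean of this ratio was higher with the deletion than with WT in both lines, by more than the spread of the replicates. With AA the libraries lay below both WT libraries in both lines, at 231 and 210 against 362 and 404 in HEK293T and at 49.98 and 49.8 against 51.7 and 53.1 in HCT116. MiR-98-5p per 100 reads of let-7f-5p was 15.0 ± 2.39 with the deletion, 15.4 ± 0.152 with AA and 16.1 ± 0.539 with WT in HCT116. In HEK293T it was 2.24 ± 0.562 with the deletion, 1.05 ± 0.132 with AA and 1.68 ± 0.397 with WT, and the AA libraries lay below both WT libraries while those of the deletion overlapped them.

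As a share of the reads of all 7 members, let-7d-5p made up 1.65% ± 0.116 with the deletion in HCT116, 7.66% ± 0.0812 with AA and 8.82% ± 0.0381 with WT (SD, n = 2). Let-7g-5p made up 21.0% ± 2.11 with the deletion, 13.2% ± 0.0418 with AA and 11.98% ± 0.502 with WT. Let-7i-5p made up 16.7% ± 0.878 with the deletion, 26.5% ± 0.0142 with AA and 22.9% ± 0.524 with WT. With the deletion the pool of HCT116 thus held a larger share of let-7g-5p and smaller shares of let-7d-5p and let-7i-5p than with WT, beyond the spread between replicates.

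In HEK293T let-7a-5p held most of the pool under every form, at 68.5% ± 1.17 with the deletion, 70.4% ± 1.01 with AA and 74.2% ± 0.904 with WT (SD, n = 2). Let-7g-5p held 12.1% ± 0.545 with the deletion, 2.66% ± 0.190 with AA and 3.45% ± 0.225 with WT. Let-7f-5p held 14.3% ± 0.367 with the deletion, 22.4% ± 1.64 with AA and 19.2% ± 1.54 with WT. As in HCT116, the share of let-7g-5p was higher with the deletion than with WT.

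**Figure D4:**
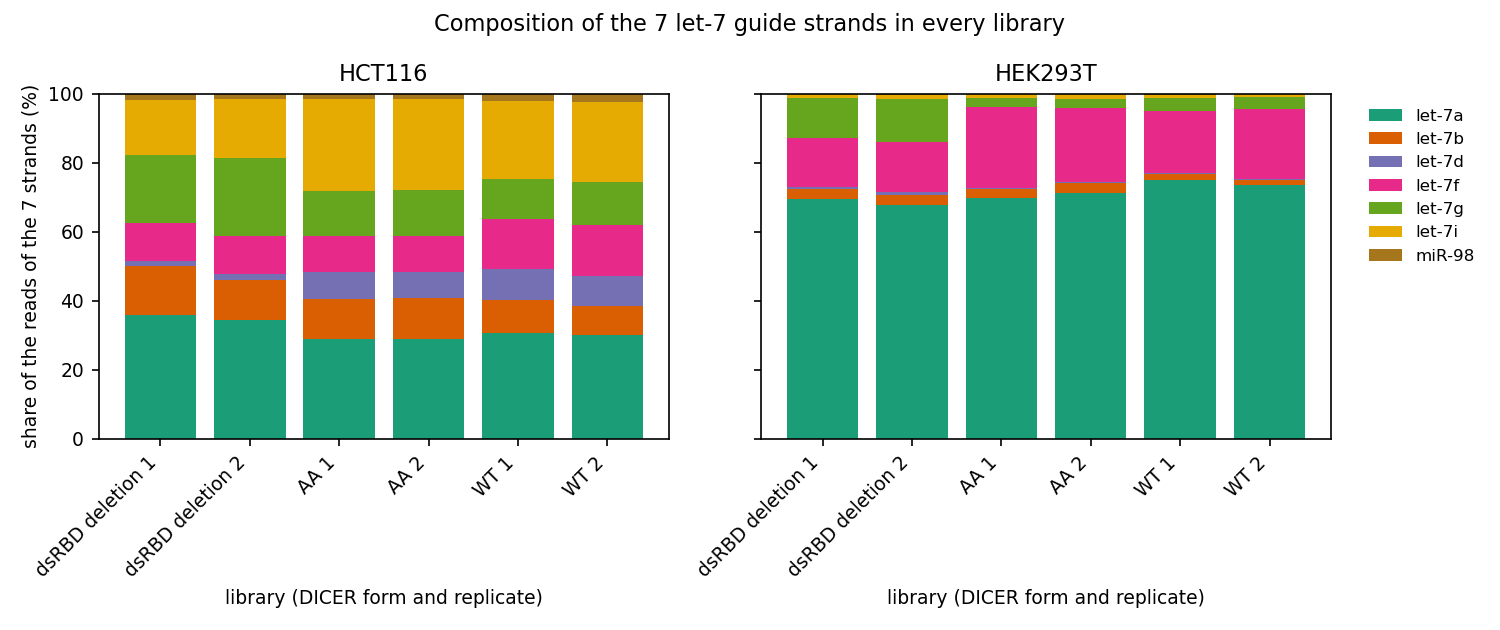
Share of each guide strand among the reads of the 7 (percent, bars from 0 to 100) in every library, with deletion, AA and WT libraries from left to right. Let-7a fills 67.6% to 74.8% of the HEK293T bars, let-7g is widest in the deletion bars of both lines, and the let-7d band of HCT116 shrinks to 1.56% and 1.73% with the deletion.

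The 2 arms of the hairpins were compared within libraries. The 5p strands held most of the reads of both arms in every group. In HCT116 the 5p share was lower with the deletion than with WT for each of the 7 members, with no overlap of the libraries. Over all 244 pairs of 5p and 3p names with at least 10 reads in every library, 23.0% were lower in this way and 54.9% higher.

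MiR-98 had the widest gap, with a 5p share of 84.2% ± 3.87 with the deletion, 87.6% ± 1.59 with AA and 93.7% ± 0.613 with WT in HCT116 (SD, n = 2). Let-7d had 89.4% ± 0.316 with the deletion, 93.4% ± 0.210 with AA and 92.9% ± 2.50 with WT. Let-7f had 94.3% ± 0.0599 with the deletion, 95.8% ± 0.398 with AA and 97.4% ± 0.182 with WT. AA was below WT without overlap for let-7a, let-7f and miR-98, 3 of 7, against 24.2% of all pairs.

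In HEK293T the 5p share was lower with the deletion, without overlap, for let-7a, let-7b, let-7d, let-7i and miR-98, 5 of 7, against 34.5% of 194 pairs, where 42.3% were higher. That of miR-98 was 73.8% ± 4.12 with the deletion, 87.6% ± 10.8 with AA and 92.0% ± 2.15 with WT (SD, n = 2). With AA 3 of 7 were lower, let-7a, let-7b and let-7g, against 27.3% of all pairs. The HEK293T shares of let-7b, let-7d, let-7i and miR-98 rest on very few 3p reads, with 2 to 7 of let-7b-3p, 2 to 11 of let-7d-3p, 3 to 15 of let-7i-3p and 2 to 9 of miR-98-3p in a library.

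**Figure D5:**
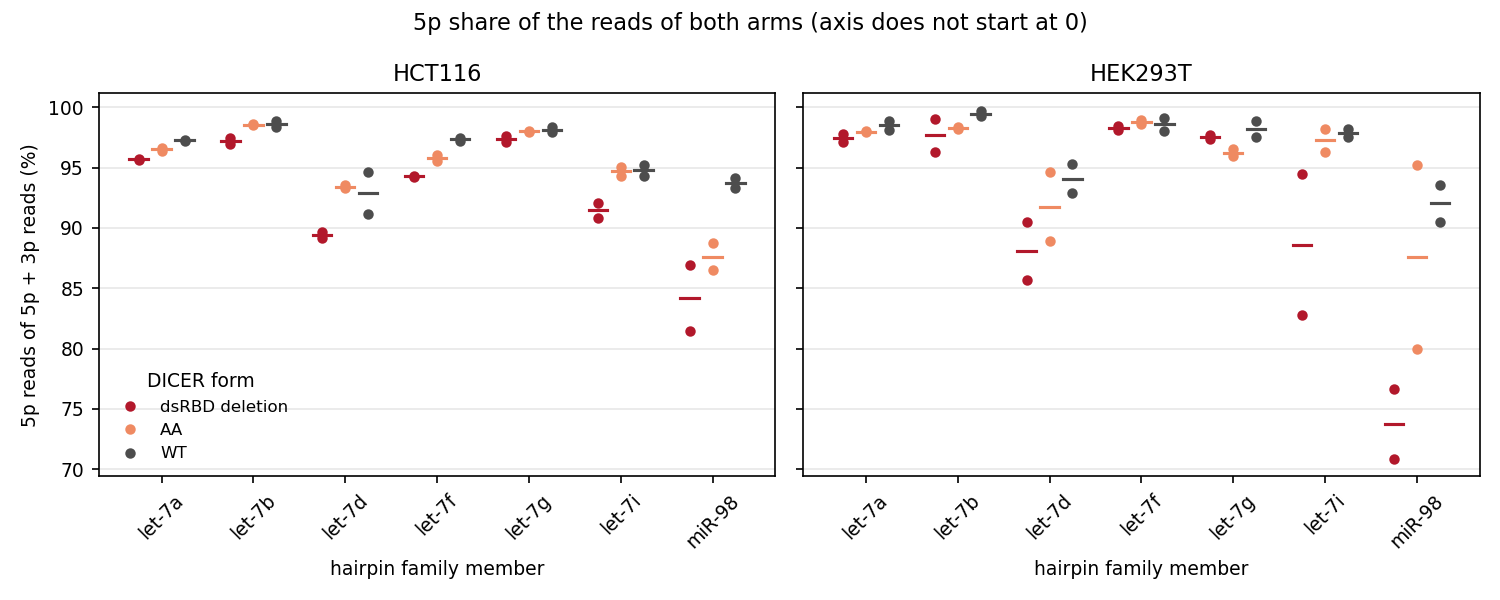
Share of 5p reads among the reads of both arms of each hairpin family (percent, axis not starting at 0) for deletion, AA and WT libraries; points are libraries and lines are means of 2 libraries. All 7 members of HCT116 have their deletion points below their WT points, and the miR-98 and let-7i points of HEK293T, with few 3p reads, are widely spread.

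Among the passenger strands themselves, 6 of the 9 listed for HCT116 were higher and 2 lower with the deletion relative to the typical miRNA, against 28.1% and 34.1% of all names. The number higher was 4 with no filter on low counts, and 5 without WT replicate 1, without deletion replicate 1 or without AA replicate 1. Let-7d-3p fell by 2.11 on the log2 scale, with its guide strand (edgeR quasi-likelihood, BH-adjusted p = 1.8e-05). Let-7f-1-3p, from the chromosome 9 cluster, fell by 1.19 (adjusted p = 4.4e-04), whereas let-7f-2-3p, from the X chromosome, stood at 0.90 and was called higher (8.1e-04). These passenger strands are specific to a locus, unlike the guide. Let-7g-3p rose with its guide, at 1.00 (3.7e-04), and let-7i-3p was at −0.01 (0.971). On the spike-in scale 0 of the 9 were higher and 7 lower, where 75.2% of all names were lower, with let-7f-2-3p at −0.90 and let-7g-3p at −0.79.

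In HEK293T 4 passenger strands had enough reads to be tested. With the deletion let-7g-3p was higher (1.30, edgeR adjusted p = 0.00816) and let-7f-2-3p lower (−1.38, 0.00291), the directions of their guides in that line. The call of let-7g-3p was lost without WT replicate 2 (0.86), without deletion replicate 2 (1.21) and with no filter (0.98), and on the spike-in scale it stood at −0.15. Let-7g-3p had 18 and 20 reads with the deletion, 16 and 6 with AA and 22 and 17 with WT, so its call rests on few reads. Let-7f-2-3p had 13 and 12 reads with the deletion, 36 and 18 with AA and 86 and 80 with WT. Let-7f-1-3p was not tested, with 5 and 2 reads with the deletion, 1 and 0 with AA and 0 and 3 with WT.

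With AA 2 of 4 passenger strands were lower in HEK293T, against 15.2% of all names, let-7a-3p (−0.71, edgeR adjusted p = 0.0335) and let-7f-2-3p (−1.02, 0.0277). Both calls were lost without AA replicate 2 (−0.52 and −0.94) and without WT replicate 1 (−0.63 and −0.82), with upper-quartile scaling (−0.26 and −0.57) and by the DESeq2 Wald test (−0.63 and −0.95), and that of let-7a-3p with DESeq2 size factors (−0.63). That of let-7f-2-3p was also lost without AA replicate 1 (−1.11), and both were lost without either deletion replicate (−0.60 and −0.61 for let-7a-3p, −0.91 and −0.92 for let-7f-2-3p). In HCT116 the 9 passenger strands had log2 fold changes with AA of −0.51 (let-7d-3p) to 0.37 (let-7a-2-3p). By edgeR 0 passed, against 7.42% of all names, with 1 at an unadjusted p under 0.05 and 0 by DESeq2. On the spike-in scale all 9 were below 0 and 2 were called lower, against 34.0% of all names. Under WT 8 passenger strands could be compared between the lines, and all 8 were lower in HEK293T than in HCT116, where 41.2% of all names were.

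Of the other names with the let-7 seed, let-7e-5p fell with every altered form. It had 520 and 771 reads with the deletion, 3021 and 3288 with AA and 7265 and 5821 with WT in HCT116 (deletion −1.87, edgeR adjusted p = 8.0e-07; AA −0.87, 0.00280, a call lost without AA replicate 1 at −0.89). In HEK293T it had 11 and 8 reads with the deletion, 85 and 26 with AA and 697 and 1240 with WT (deletion −5.28, 4.2e-07; AA −3.55, 3.2e-05). These falls in HEK293T are larger than that of any of the 7 members there. Let-7c-5p did not pass in any of the 4 comparisons with WT, at −0.16 and −0.07 in HCT116 and 0.56 and −0.68 in HEK293T for the deletion and AA. With the deletion in HEK293T it was called higher with DESeq2 size factors (0.58), by the DESeq2 Wald test (0.58), with library totals (0.68), with upper-quartile scaling (0.99), without WT replicate 2 (0.69) and without AA replicate 1 (0.50), and lower with spike-ins (−0.89). With AA there it was called lower with library totals (−0.74), with spike-ins (−1.13), with no filter (−0.79) and without AA replicate 1 (−1.10). MiR-4458 and miR-4500 had at most 7 reads in a library where they were listed. MiR-4458 had 7 and 6 reads with the deletion, 3 and 0 with AA and 0 and 1 with WT in HEK293T, where it was called higher with the deletion (edgeR adjusted p = 7.7e-04) on these few reads.

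MIRLET7A2 shares its host transcript with miR-100 and miR-125b. With the deletion in HCT116 miR-100-5p (0.66, edgeR adjusted p = 3.1e-04) and miR-100-3p (0.81, 0.00249) were higher relative to the typical miRNA and lower on the spike-in scale (−1.13 and −0.99), miR-125b-5p was lower (−1.01, 2.7e-04, and −0.48 with library totals, where it was not called) and miR-125b-1-3p did not pass (0.14, 0.481). With no filter on low counts 1 of the miR-100 rises was still called. With AA in HCT116 miR-125b-5p was also lower (−0.98, edgeR adjusted p = 0.00411), a call lost without AA replicate 1. There miR-100-5p (0.09), miR-100-3p (−0.05) and miR-125b-1-3p (−0.06) did not pass. In HEK293T miR-125b-5p was the 1 of these that could be tested. It was higher with the deletion (2.37, 3.8e-05) and did not pass with AA (−0.09, 0.888). Mature miR-125b-5p is also made from a locus outside this host. With WT in HEK293T miR-125b-5p had 4944 and 6056 reads, while miR-100-5p had 0 and 2. Which locus gave the miR-125b-5p reads was not tested.

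The names most like each member over the 12 libraries were found by the root mean square difference of log2 CPM, centred within each line, among 191 names of at least 100 CPM in both lines. For let-7a-5p these were let-7f-5p (0.257) and miR-374a-5p (0.288), and for let-7f-5p they were let-7a-5p (0.257) and miR-16-5p (0.315). Let-7b-5p was closest to miR-374a-5p (0.232) and miR-20a-5p (0.241), and let-7i-5p to miR-320a (0.180) and miR-31-5p (0.246). Let-7g-5p was closest to miR-130b-3p (0.352) and let-7c-5p (0.385), and miR-98-5p to let-7a-5p (0.300) and let-7f-5p (0.344). Let-7d-5p had no name as near, with miR-365a-3p and miR-324-3p both at 0.550. It had 16 to 144 reads in an HEK293T library, and the part of counting error in its distance was not tested. Let-7d-5p, let-7i-5p and miR-98-5p, below 100 CPM in HEK293T on average, could not be listed as similar names. These distances are a description of 12 libraries.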

How the data were processed

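Per the labels' protocols, AQ-seq libraries were made from TRIzol-extracted total RNA. The deposited values are raw read counts per miRNA name and per spike-in, in a table for each of the 12 libraries. Per the submitters' processing notes, cutadapt, BWA and bedtools were used with the builds hg38 and mm10. Their roles, the miRNA annotation and the counting of reads that match several names are not stated in these sources, so members that differ by 1 base may share reads.

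The 30 spike-ins entered neither the library sizes nor the tests. In each line, names passing filterByExpr (minimum count 10, 795 in HCT116 and 626 in HEK293T) were scaled by TMM and tested over its 6 libraries with edgeR 4.0.16 (R 4.3.3), quasi-likelihood F test, two-sided, with Benjamini-Hochberg adjustment over all names at 0.05. Line differences used all 12 libraries and 844 names listed in both lines. CPM are TMM-scaled, except those of markers and count limits, which use library totals, and the SE is the size of the log2 fold change divided by the square root of F. DESeq2 1.42.0, 4 other scalings, no filter, a replicate block and leaving out each library were alternatives. All 7 members passed the filter in each fit. The limits for counts of 0 cover counting error only.

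The labels do not say that replicates are separate cultures, and the p-values cover only the spread among these libraries. The correlations of replicate differences between forms were −0.10 to 0.15, so equal numbers were not used as pairs. The 7 members, the lists of passenger strands, other names with the seed and cluster neighbours, and the rule for names with similar patterns were chosen with earlier results of these data known. Every member is named in every comparison. Sequences are from RefSeq and host genes from GENCODE on GRCh38. The raw reads were not used here.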

Additional observations from a re-analysis of the deposited data

Results flagged for a closer look

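For 2 members the effect of an altered DICER form differed between the lines by a direct test (edgeR contrast of the effects over 12 libraries, Benjamini-Hochberg adjustment). For let-7d-5p the effect of the deletion differed by 2.79 on the log2 scale (HEK293T minus HCT116, adjusted p = 5.1e-07). For let-7g-5p the effect of AA differed by −1.38 (adjusted p = 0.00679). Let-7d-5p had 33.5 and 32.1 CPM with the deletion in HEK293T, from 38 and 42 reads, and let-7g-5p had 140 and 119 CPM with AA there.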

How the results depend on the processing

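Some of the members' log2 fold changes over WT kept direction and call under every alternative. With the deletion these were let-7d-5p and let-7i-5p in HCT116 and let-7a-5p and let-7f-5p in HEK293T. With AA this was let-7g-5p in HEK293T. Why the values below moved was not tested. Scaling to library totals in HCT116 gave 2 members lower and 3 higher with the deletion, let-7a-5p (0.42) among the 3. Of all 795 names 198 were lower and 317 higher. With AA there this scaling gave 1 lower, against 23 of all 795 names, and let-7g-5p turned to 0.12 without a call. In HEK293T let-7b-5p turned to 0.00271 with the deletion, also without a call. Upper-quartile scaling gave 3 members lower, without miR-98-5p, and 2 higher with the deletion in HCT116, where let-7a-5p turned to 0.21 without a call. Of all 795 names 231 were lower and 281 higher. With AA there this scaling gave 0 lower, against 23 of all 795 names, and let-7g-5p turned to 0.083. In HEK293T upper-quartile scaling gave 2 lower with the deletion and 3 lower with AA, against 212 and 41 of 626 names. Values that turned above 0 there without a call were those of let-7b-5p (0.31 with the deletion, 0.10 with AA) and let-7d-5p (0.18 with the deletion). Spike-in scaling gave 7 lower and 0 higher with the deletion in both lines, where 598 of 795 names in HCT116 and 386 of 626 in HEK293T were lower. Among those called lower were let-7b-5p (−1.57) and let-7g-5p (−1.32) in HCT116 and let-7g-5p (−0.72) in HEK293T. With AA in HCT116 spike-in scaling gave 5 lower, against 270 of 795 names, while let-7b-5p (−0.39) and let-7i-5p (−0.60) turned below 0 without a call. Without a filter 0 members were higher with the deletion in either line, against 151 of 1854 names in HCT116 and 181 of 1611 in HEK293T. Let-7b-5p turned to −0.013 in HCT116 without a call.

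For the difference of the deletion effect between lines, 3 members were called with DESeq2 size factors, against 152 higher and 136 lower of 844 names. Library totals gave 4 members, against 93 higher and 197 lower names. With upper-quartile factors 3 were called, against 148 higher and 141 lower names. Without a filter 3 were called, against 135 and 136 of 1494 names, and with the DESeq2 Wald test 2, against 141 and 125 of 844. Other members turned below 0 without a call. With library totals these were let-7g-5p (−0.17), let-7i-5p (−0.41) and miR-98-5p (−0.67). Let-7i-5p did so with upper-quartile factors (−0.011) and without a filter (−0.021). MiR-98-5p did so with upper-quartile factors (−0.27), without a filter (−0.28), with DESeq2 size factors (−0.24) and by the DESeq2 Wald test (−0.24). With spike-ins let-7b-5p turned to 0.013, also without a call. For AA the members called were 4 with library totals, against 7 higher and 71 lower of 844 names. Without a filter they were 2, against 14 higher and 32 lower of 1494 names.

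Leaving out 1 library at a time, the members called in HCT116 were 0 to 2 higher with the deletion and 0 to 3 lower with AA, and let-7b-5p ranged from −0.22 to 0.41 with the deletion, let-7g-5p from −0.16 to 0.040 and let-7i-5p from −0.067 to 0.092 with AA. In HEK293T they were 0 to 1 higher with the deletion and 1 to 6 lower with AA. For the difference between lines they were 1 to 3 (deletion; let-7b-5p −0.39 to 0.34, let-7f-5p −0.87 to 0.10, miR-98-5p −0.32 to 0.45) and 1 to 2 (AA; let-7f-5p −0.52 to 0.42). A group left with 1 library was assumed to vary like the others.

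The replicate numbers were not used as pairs. With the replicate block the members lower with AA in HCT116 were 1 (miR-98-5p −0.77, edgeR adjusted p = 0.0604), and the block changed no other call of a member. Of the other names described it changed let-7c-5p in HEK293T, called higher with the deletion (0.55, adjusted p = 0.0115) and lower with AA (−0.71, 0.00443). Crossing the AA numbers of HCT116, an alternative chosen after seeing the data because the WT and AA replicate differences correlated at −0.10, gave 234 higher and 275 lower names with the deletion and 15 and 63 with AA, against 223 and 271, and 10 and 49.

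With 2 libraries a group, and at most 144 reads of let-7d-5p and 131 of miR-98-5p in an HEK293T library, small changes were not detectable at this depth.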
